A study of Felis catus with 8 samples.

Results

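The comparison described here is the effect of trans fat plus HFCS (high-fructose corn syrup) on liver gene expression in cats that all ate monosodium glutamate (MSG). It set 2 arrays of the combined diet against 2 arrays of the MSG diet, 4 of the 8 arrays of the series, chosen by the diet in their labels. The MSG diet was a standard cat chow with 1.125% MSG added, and the combined diet supplied the same 1.125% MSG together with 24% HFCS and 8.6% trans fat. The labels do not say whether the combined diet was built on the same chow, so other ingredients may differ between the diets. The other 4 arrays, 2 of the plain control chow and 2 of a trans-fat/HFCS diet with 8.6% trans fat and 24% HFCS but no MSG, gave the same dietary change without MSG. All animals were male Felis catus of 9 months, fed after weaning what their mothers had eaten since 3 weeks before mating, so exposure covered gestation, nursing and growth. Total RNA came from snap-frozen liver, 4 to 5 livers per diet per the protocols, and 250 ng of it was labelled per array. The arrays of a diet are labelled as biological replicates, but litters and any pooling of RNA are not given, so every p-value below measures only the spread between these arrays.

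Trans fats are unsaturated fatty acids with a trans double bond, formed when plant oils are partly hydrogenated, and HFCS supplies fructose, which the liver takes up and can turn into fat. Glutamate is an amino acid that the liver and gut handle in large amounts, and MSG is its sodium salt, used as a flavour enhancer. The liver makes cholesterol, converts it into bile acids, oxidises fatty acids in mitochondria between meals, and answers hormones such as glucocorticoids through nuclear receptors. Immediate early genes are switched on within minutes by many signals, including feeding, stress hormones and tissue handling, and their RNA decays fast.

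Levels below are log2 intensities, and differences are log2 changes of the combined diet over the MSG diet with the moderated standard error (SE) of limma. A gene was called when its limma p, adjusted by Benjamini-Hochberg over all 17910 genes tested, was under 0.05. Cat RNA was hybridised to human probes (HuGene 1.0 ST), so variation in sequence among the animals can alter a probe set's signal with expression unchanged. A level also depends on how well the probes match, and levels of different genes are not compared. Probe sets with a mean under log2 2.43 over the 8 arrays were left out, and levels close to that value have little signal to lose.

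The deposited arrays had median intensities of 5.25 to 5.28. Across genes within these arrays, the 2 MSG arrays correlated at 0.961, the 2 combined arrays at 0.946, and MSG with combined arrays at 0.921 to 0.929. Of 15 hepatocyte markers 14 were measured, none was called, and their median log2 change was -0.13. Measured means only that a probe set passed the filter, as for all 19 skeletal muscle markers, so this does not show the tissue. No member of any of the 13 marker lists of liver and neighbouring cell types was called.

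Adding trans fat and HFCS to an MSG diet went with lower RNA for the MAP kinase phosphatase DUSP1, the mitochondrial carrier SLC25A25 and the deiodinase DIO2. RNA was also lower for the bile acid enzyme CYP7A1 and for KLB, a co-receptor in the control of bile acid synthesis. Higher RNA was seen for the glucocorticoid receptor co-chaperone FKBP5. In all, 297 genes were called, 1.66% of those tested. Of these, 169 (0.944%) were higher and 128 (0.715%) lower with the combined diet, and 228 differed at least 2-fold, 133 upward and 95 downward. The median log2 change of all genes was 0.01, against 1.24 for the called increases and -1.20 for the called decreases. A single kept probe set carried 84 of the called genes, 28.3% of them, against 11.2% of all genes tested. At least 3 kept probe sets, with a median change at least 0.5 times the mean, supported 103 called genes, 48 higher and 55 lower, and the 15 largest named changes in each direction were taken from these. The count fell to 54 without MSG array 1, 62 without MSG array 2, 153 without combined array 1, 145 without combined array 2, 172 without either control array and 233 without either trans-fat/HFCS array, so many calls depended on having both arrays of each diet. Leaving an array out also takes 1 residual degree of freedom, and the lone array left in a diet is then assumed to vary like the other groups. Of 75 called genes followed with each array left out in turn, 15 kept the call whichever array it was.

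**Figure D1:**
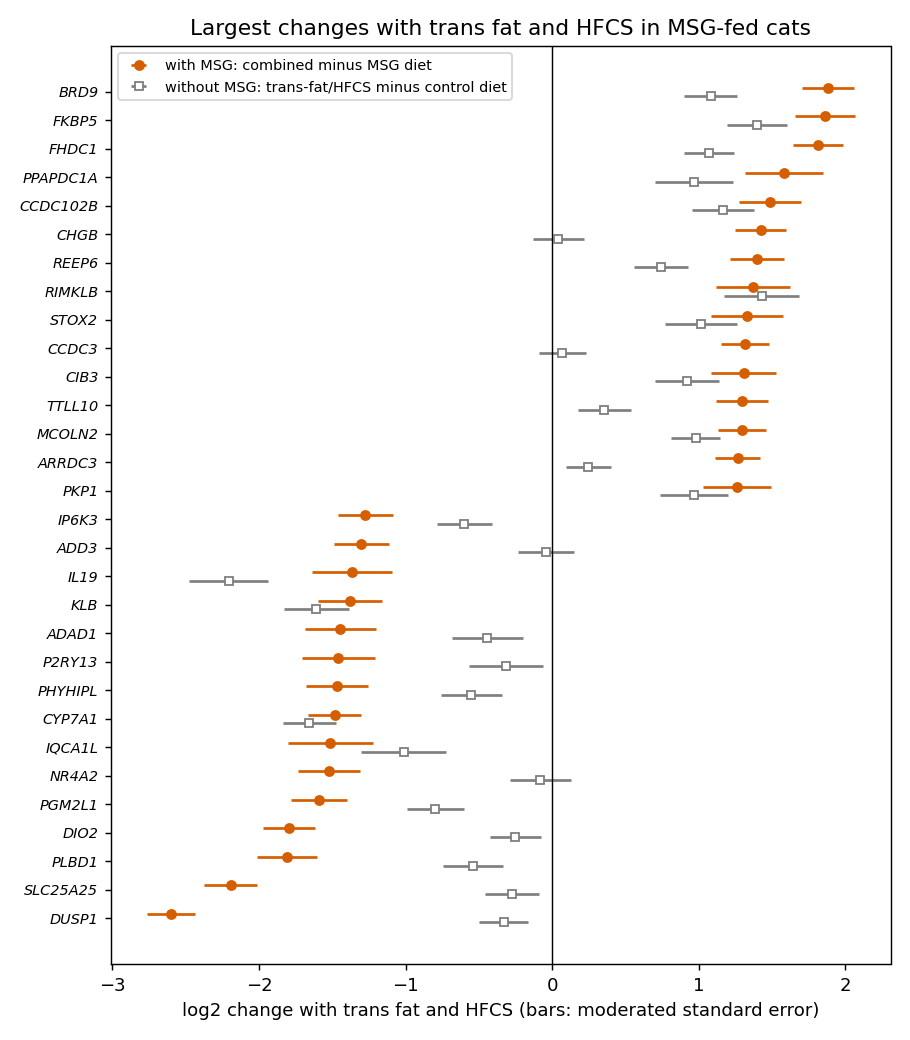
The 15 named increases and 15 named decreases of the combined diet over the MSG diet (orange circles), beside the change of the same genes with trans fat and HFCS without MSG (grey squares); the x axis is the log2 change and bars are moderated standard errors, 2 arrays per diet. DUSP1 at -2.60 and SLC25A25 at -2.19 stand far from their values without MSG of -0.33 and -0.27, whereas CYP7A1 (-1.48 and -1.66), KLB (-1.38 and -1.61) and RIMKLB (1.37 and 1.43) lie at like values in both. A single probe set at 3.68 carried most of the RIMKLB change with MSG.

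A first set of genes was set apart by the MSG arrays, with the combined arrays back near the control arrays or past them. DUSP1, a phosphatase that switches off MAP kinases, read 6.35 and 6.53 on the MSG arrays and 3.76 and 3.92 on the combined arrays, with 4.90 and 5.00 on control and 4.56 and 4.68 on trans-fat/HFCS arrays. The combined arrays were the lowest of the 8 and the MSG arrays the highest, and the groups did not overlap. The decrease of DUSP1 was 6.07-fold, a log2 change of -2.60 (SE 0.17, limma adjusted p = 0.000345), and all 4 of its probe sets were lower. SLC25A25, which carries ATP-magnesium and phosphate across the inner mitochondrial membrane, read 6.79 and 6.39 on MSG arrays against 4.34 and 4.45 on combined arrays, with control at 4.53 and 4.43 and trans-fat/HFCS at 4.18 and 4.23. Only the MSG arrays were high, and the 6 others lay within 4.18 to 4.53. The log2 change was -2.19 (SE 0.18, limma adjusted p = 0.00147), with 7 of 8 probe sets lower.

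DIO2, the type 2 deiodinase that turns thyroxine into the active thyroid hormone inside cells, showed the same layout. It read 5.16 and 5.43 on the MSG arrays, 3.39 and 3.61 on the combined arrays, 3.36 and 3.34 on control and 3.18 and 3.03 on trans-fat/HFCS arrays. The change of DIO2 was -1.79 (SE 0.18, limma adjusted p = 0.00297), and 5 of its 7 probe sets were lower. It was the only called member among 18 measured genes of the activin and thyroid hormone axis, 5.56% against 1.66% of all genes. The median change of that list was -0.13. NR4A2, an orphan nuclear receptor of the immediate early class, read 4.38 and 4.20 on MSG arrays against 2.83 and 2.71 on combined arrays, with 2.95 and 2.44 on control and 2.75 and 2.48 on trans-fat/HFCS arrays. The 6 arrays outside the MSG diet were close to the filter on dim probe sets, so the change of -1.52 (SE 0.21, limma adjusted p = 0.0109) has little room below it. The change of NR4A2 turned to 0.65 when only its brightest probe set was used or the filter was set at the 75th percentile of all probe sets, and its call was lost without MSG array 1 (adjusted p = 0.11), MSG array 2 (0.066) or combined array 2 (0.055). DUSP1, SLC25A25 and DIO2 kept their calls in all 17 other settings tried, some of which amount to the same fit of this comparison.

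The MSG diet alone differed from control in these genes, by 1.49 for DUSP1, 2.11 for SLC25A25, 1.94 for DIO2 and 1.60 for NR4A2 on the log2 scale. The combined diet differed from control by -1.11, -0.08, 0.15 and 0.07 in the same order. These differences share the MSG or the combined arrays with the main comparison and are not separate evidence for it.

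**Figure D2:**
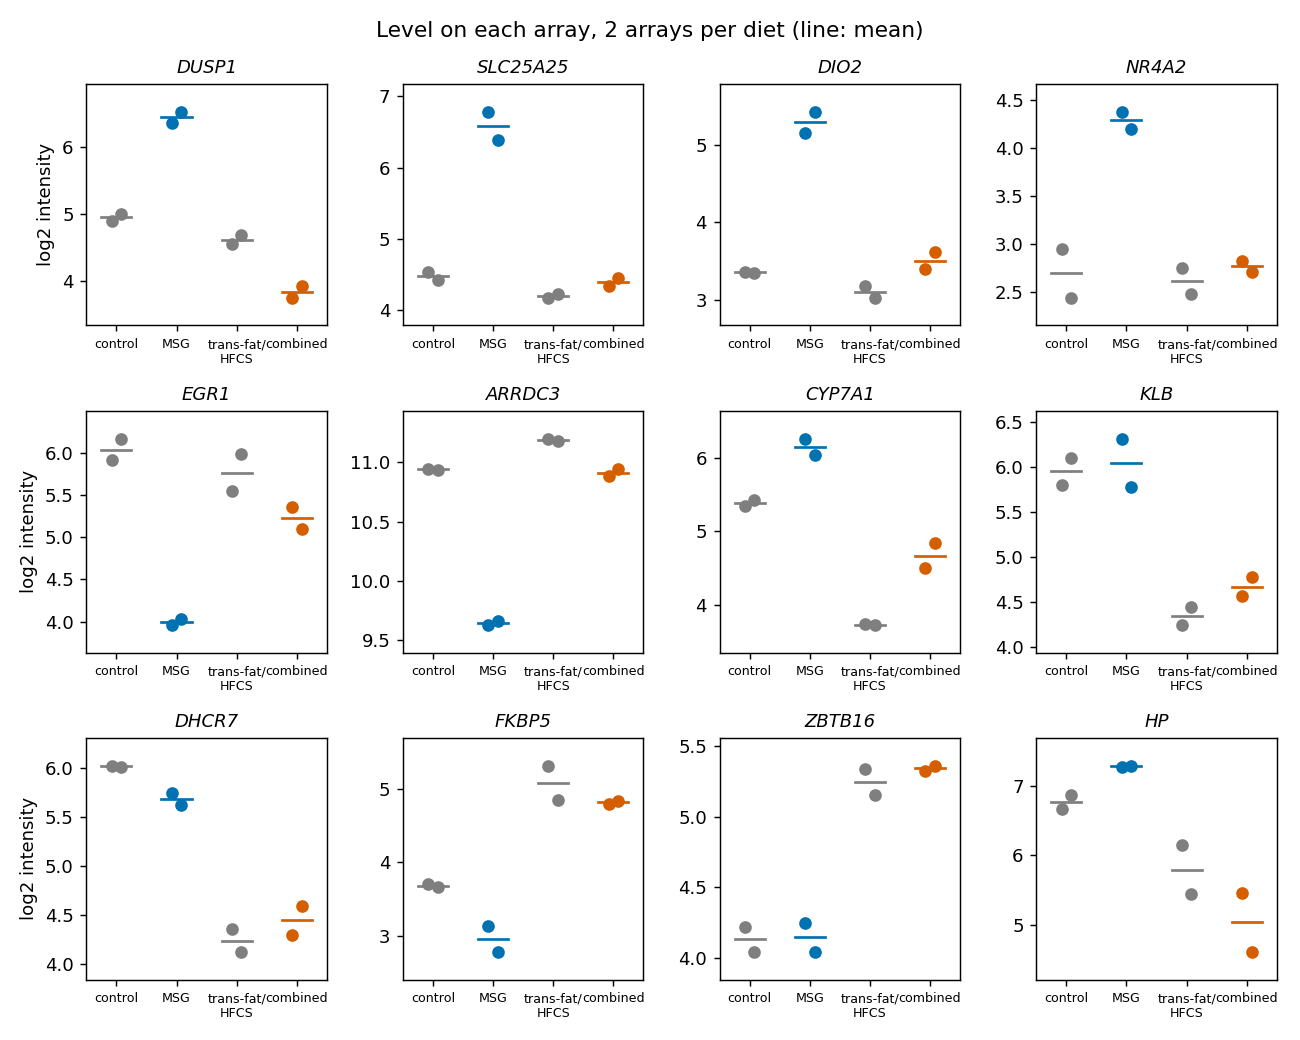
Log2 intensity of 12 genes on each of the 8 arrays (points) with the mean of each diet (lines), from left to right control, MSG, trans-fat/HFCS and combined. DUSP1, SLC25A25, DIO2, NR4A2, EGR1 and ARRDC3 are set apart by their MSG arrays, while CYP7A1, KLB, DHCR7, FKBP5 and ZBTB16 lie in one range on both diets without trans fat and HFCS and in another on both diets with them.

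Of 40 measured immediate early genes, 6 fell and 1 rose, 17.5% against 1.66% of all genes, and the median change of the list was -0.17. Besides DUSP1 and NR4A2, the genes that fell were ZFP36, which speeds the decay of cytokine messages (-1.31, SE 0.17, limma adjusted p = 0.00856, 1 probe set), CTGF, a secreted matricellular protein (-1.04, SE 0.16, adjusted p = 0.0166), the growth brake BTG1 (-0.89, SE 0.16, adjusted p = 0.0312) and the kinase SGK1 (-0.85, SE 0.16, adjusted p = 0.0392). EGR1, a zinc finger transcription factor of the same class, moved the other way. It read 3.96 and 4.03 on MSG arrays and 5.35 and 5.10 on combined arrays, with 5.91 and 6.16 on control and 5.55 and 5.98 on trans-fat/HFCS arrays. The MSG arrays were the lowest, and EGR1 rose by 1.23 (SE 0.20, limma adjusted p = 0.0222). Its probe sets gave 0.38, 1.52 and 1.79, and its call was lost with the brightest, at 0.38. The probe sets of CTGF gave -2.55, -2.47, -0.37, 0.02 and 0.16. The call of CTGF was lost with the median of its probe sets and in the fit of the 4 arrays of the contrast alone.

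The other classical members did not pass the test: JUN was at -1.04 (limma adjusted p = 0.12), FOSB at -0.86 (0.12), MYC at -0.76 (0.087), JUNB at -0.36 (0.53) and FOS at -0.19 (0.66). Of the 7 called immediate early genes, DUSP1 alone was still called without either MSG array, 3 without combined array 1, 2 without combined array 2, where JUN was newly called (adjusted p = 0.0318), and 5 without any other single array. Without MSG array 1 the adjusted p was 0.16 for EGR1, 0.13 for CTGF, 0.18 for BTG1, 0.21 for SGK1 and 0.063 for ZFP36. Without MSG array 2 it was 0.11, 0.091, 0.13, 0.13 and 0.075 in the same order. BTG1 and SGK1 lost their calls without any 1 of the 8 arrays, and CTGF and EGR1 also without either combined array (0.07 and 0.06 for CTGF, 0.093 and 0.055 for EGR1).

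In a second set, the changes with trans fat and HFCS were of like size on the arrays with and without MSG. CYP7A1, which catalyses the slowest step from cholesterol to bile acids, read 6.26 and 6.04 on the MSG arrays and 4.50 and 4.84 on the combined arrays, while control arrays read 5.34 and 5.43 and trans-fat/HFCS arrays 3.73 and 3.73. Each diet with trans fat and HFCS lay below its counterpart without overlap. CYP7A1 fell 2.80-fold (log2 change -1.48, SE 0.18, limma adjusted p = 0.00624), and all 4 probe sets were lower. KLB, beta-Klotho, the co-receptor through which an intestinal fibroblast growth factor restrains bile acid synthesis, read 6.32 and 5.78 on MSG against 4.57 and 4.78 on combined arrays. Its control arrays read 5.81 and 6.11 and its trans-fat/HFCS arrays 4.25 and 4.45. All 4 arrays with trans fat and HFCS were below all 4 arrays without, and KLB fell by 1.38 (SE 0.22, limma adjusted p = 0.0206). On the arrays without MSG the changes were -1.66 for CYP7A1 (limma adjusted p = 0.0032) and -1.61 for KLB (adjusted p = 0.0094).

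These were the called members among 22 measured bile acid genes, 9.09% against 1.66% of all genes. Changes of 16 of the 22 were negative, 72.7% against 48.4% of all genes, and the list median was -0.20. A share of this size was not particular to bile acid genes. It was 72.7% for the insulin and IGF axis, 72.2% for the activin and thyroid hormone axis and 71.4% for hepatocyte markers. The pathway lists ranged from 32.3% for cell cycle to 84.0% for the unfolded protein response. FGFR4, the receptor that pairs with KLB, was at -0.42 (limma adjusted p = 0.25), the export pump ABCB11 at -0.41 (0.25), NR0B2, a nuclear receptor that represses CYP7A1, at 0.41 (0.28), the alternative pathway enzyme CYP27A1 at 0.22 (0.61) and CYP8B1, which sets the ratio of bile acid species, at -0.08 (0.91). The call of CYP7A1 was lost without MSG array 1 (adjusted p = 0.074). That of KLB was lost without MSG array 1 (0.15), combined array 1 (0.087) or combined array 2 (0.057), with the median of its probe sets (0.087) and in the fit of the 4 arrays of the contrast alone (0.057).

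Of 19 measured cholesterol synthesis genes, 1 passed the test, 5.26% against 1.66% of all genes. DHCR7, which makes the last reduction on the way to cholesterol, read 5.74 and 5.62 on MSG arrays and 4.30 and 4.59 on combined arrays, with 6.02 and 6.01 on control and 4.36 and 4.13 on trans-fat/HFCS arrays. The arrays split by trans fat and HFCS, with no overlap. DHCR7 fell by 1.23 (SE 0.18, limma adjusted p = 0.0132), and by 1.77 on the arrays without MSG (adjusted p = 0.0021). Changes of 15 of the 19 were negative, 78.9% against 48.4% of all genes, and the list median of -0.36 was the lowest of the 23 lists. The members nearest to the threshold were EBP, an isomerase of late sterol synthesis (-0.78, limma adjusted p = 0.062), ACAT2, which makes acetoacetyl-CoA (-1.32, adjusted p = 0.066), and IDI1 of the isoprenoid steps (-0.75, adjusted p = 0.15). HMGCS1, the first enzyme committed to mevalonate, was at 0.42 (adjusted p = 0.28), and SQLE, squalene epoxidase, at -0.41 (adjusted p = 0.34). The median of the list stayed negative in every setting tried, from -0.61 to -0.21. The call of DHCR7 was lost without MSG array 1 (adjusted p = 0.12), MSG array 2 (0.074) or combined array 1 (0.064), and its change was -0.04 when only its brightest probe set was used. Genes of sterol control, uptake and export gave no call among 20, with a median of -0.08. The members of that list with the smallest p were STARD4, a carrier of sterols in the cytosol, at -0.60 (adjusted p = 0.13) and the uptake transporter NPC1L1 at -0.56 (adjusted p = 0.17).

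Glucocorticoid response genes went both ways. Of 17 measured, 4 were called, 23.5% against 1.66% of all genes: FKBP5 and ZBTB16 rose and DUSP1 and SGK1 fell, with a list median of -0.02. DUSP1 and SGK1 are the calls already counted among immediate early genes, and that of SGK1 was lost without any 1 array. FKBP5, a co-chaperone that glucocorticoids induce and that lowers the affinity of their receptor, read 3.13 and 2.78 on the MSG arrays and 4.80 and 4.84 on the combined arrays, with 3.70 and 3.66 on control and 5.31 and 4.85 on trans-fat/HFCS arrays. All 4 arrays with trans fat and HFCS were above all 4 without. FKBP5 rose 3.64-fold (log2 change 1.86, SE 0.20, limma adjusted p = 0.00441), all 9 probe sets agreed in sign, and the rise without MSG was 1.40 (adjusted p = 0.012). ZBTB16, a zinc finger transcription factor that glucocorticoids also induce, read 4.25 and 4.04 on MSG against 5.33 and 5.36 on combined arrays, and 4.22 and 4.04 on control against 5.34 and 5.16 on trans-fat/HFCS arrays. The MSG arrays lay at the control level and the combined arrays at the trans-fat/HFCS level. ZBTB16 rose by 1.20 (SE 0.17, limma adjusted p = 0.0121), and by 1.12 without MSG (adjusted p = 0.015).

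Other genes that glucocorticoids induce did not pass the test. PER1 was at 0.58 (limma adjusted p = 0.20), TSC22D3 at -0.42 (0.25) and the metallothionein MT1X at -0.02 (0.97). The call of FKBP5 held with any 1 array left out and was lost only when the median of its probe sets replaced the mean (adjusted p = 0.06, change 2.35), out of 17 settings. ZBTB16 lost its call without MSG array 1 (0.073), MSG array 2 (0.095), combined array 1 (0.0501) or combined array 2 (0.057), and with its brightest probe set alone (change 0.46).

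Among the other named increases, BRD9 and FHDC1 were the largest. BRD9, a bromodomain subunit of a chromatin remodelling complex, read 3.49 and 3.36 on MSG and 5.22 and 5.39 on combined arrays, with 3.77 and 4.04 on control and 4.88 and 5.08 on trans-fat/HFCS arrays. It rose by 1.88 (SE 0.18, limma adjusted p = 0.00257), with all 3 kept probe sets alike, but by only 0.21 (adjusted p = 0.28) when dim probe sets were kept in the mean. FHDC1, a formin that acts on actin and microtubules, rose by 1.81 (SE 0.17, adjusted p = 0.00257), with probe sets at -0.05, 0.97 and 4.53, so 1 probe set carried most of it. Both genes were highest on the 4 arrays with trans fat and HFCS, and without MSG they rose by 1.08 and 1.07. The lysosomal channel MCOLN2 rose by 1.30 (SE 0.17, limma adjusted p = 0.008), from 2.86 and 2.87 on MSG to 4.02 and 4.31 on combined arrays, and by 0.98 without MSG. Of its 9 probe sets 6 were higher. The call was lost with the median of the probe sets (change 1.59, adjusted p = 0.18), and the change was 0.57 when dim probe sets were kept in the mean.

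For CHGB and ARRDC3 the MSG arrays were the low ones, and the combined arrays lay near control. CHGB, chromogranin B of secretory granules, read 2.78 and 2.93 on MSG arrays and 4.28 and 4.28 on combined arrays, with 4.41 and 4.66 on control and 4.47 and 4.68 on trans-fat/HFCS arrays. It rose by 1.42 (SE 0.17, limma adjusted p = 0.00624), against 0.04 without MSG. The CHGB probe sets gave 0.06, 1.05 and 3.16, so 1 probe set carried most of the rise. ARRDC3, an alpha-arrestin that directs membrane receptors to degradation, read 9.63 and 9.66 on MSG and 10.89 and 10.94 on combined arrays, while control arrays read 10.95 and 10.93 and trans-fat/HFCS arrays 11.20 and 11.17. All 9 of its probe sets were higher, between 1.08 and 1.42, and ARRDC3 rose by 1.27 (SE 0.15, limma adjusted p = 0.00606) against 0.25 without MSG. The difference between the changes with and without MSG did not pass the test for CHGB (1.38, limma adjusted p = 0.12) or ARRDC3 (1.02, adjusted p = 0.19). CHGB lost its call without MSG array 1 (0.074), ARRDC3 without MSG array 1 (0.062) or MSG array 2 (0.0504), and MCOLN2 without MSG array 1 (0.075) or MSG array 2 (0.065).

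The remaining named increases were CCDC3, REEP6, RIMKLB, STOX2, CIB3, TTLL10, PPAPDC1A, CCDC102B and PKP1, with log2 changes of 1.26 to 1.58. CCDC3, a secreted protein, was high on the combined arrays alone: 4.03 and 4.24, against 2.88 and 2.75 on MSG, 2.78 and 2.77 on control and 2.85 and 2.84 on trans-fat/HFCS arrays. REEP6, which shapes the endoplasmic reticulum, read 5.26 and 4.92 on combined and 3.70 and 3.69 on MSG arrays. RIMKLB, a ligase that joins N-acetylaspartate to glutamate, rose by 1.37 with MSG and 1.43 without. Its probe sets gave -0.41, 0.85 and 3.68 with MSG. Its call was lost with the median of the probe sets, in the fit of the 4 arrays alone and with a replicate block. A single probe set also carried most of the change for REEP6 (3.11, others 0.55 to 1.01), CCDC102B (3.34, others 0.36 and 0.77) and TTLL10 (2.98, others 0.06 and 0.85). Each of the 9 lost its call without at least 1 array, with adjusted p up to 0.20 for PKP1 without MSG array 1, 0.18 for PPAPDC1A without MSG array 1, 0.17 for RIMKLB and STOX2 without MSG array 2, and 0.17 for CIB3, 0.10 for TTLL10 and 0.081 for REEP6 without MSG array 1. CCDC3 and CCDC102B reached 0.065 and 0.093 without MSG array 2.

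Among the remaining decreases, PLBD1 and PGM2L1 rested on the most probe sets. PLBD1, a phospholipase B-like protein, read 7.68 and 7.31 on MSG and 5.60 and 5.77 on combined arrays, with 6.66 and 7.07 on control and 6.39 and 6.27 on trans-fat/HFCS arrays. All 11 probe sets were lower, and PLBD1 fell by 1.81 (SE 0.21, limma adjusted p = 0.00467). PGM2L1, which makes glucose-1,6-bisphosphate, read 5.22 and 5.35 on MSG and 3.85 and 3.54 on combined arrays, and fell by 1.59 (SE 0.19, adjusted p = 0.00622) with 11 of 12 probe sets lower. Both diets with trans fat and HFCS lay below both diets without it for PGM2L1 and for PLBD1. Without MSG the changes were -0.54 and -0.80 for PLBD1 and PGM2L1 and did not pass the test.

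The other decreases were P2RY13, an ADP receptor (-1.46), PHYHIPL (-1.47), ADAD1 (-1.45), IQCA1L (-1.51), IL19, a cytokine of the interleukin-10 family (-1.37), ADD3, an adducin of the membrane skeleton (-1.30), and the inositol phosphate kinase IP6K3 (-1.27). For PHYHIPL the brightest probe set, at a mean level of 9.49, changed by only -0.05, and others gave 0.23 and 0.46. The call of PHYHIPL was lost with that probe set alone and with the median of its probe sets. IL19 read 3.59 and 4.31 on MSG and 2.67 and 2.49 on combined arrays, with control at 5.00 and 4.57 and trans-fat/HFCS at 2.80 and 2.37, so its lower arrays were close to the filter. IL19 and IQCA1L lost their calls without any 1 array, with adjusted p up to 0.19 without MSG array 2 and 0.22 without MSG array 1. The call of PLBD1 was lost without MSG array 1 (0.055) and that of PGM2L1 without MSG array 1 (0.055) or MSG array 2 (0.064). The 5 others lost their calls without either MSG array and without 1 or both combined arrays, ADAD1 also without either control array. Their highest adjusted p was 0.12 for PHYHIPL, 0.11 for ADD3 and 0.12 for IP6K3 without MSG array 1, and 0.15 for ADAD1 and P2RY13 without MSG array 2. Of 8 neutrophil markers 5 were measured and none was called, with 3 negative and 2 positive changes, and their summed intensity was 69.4 to 71.6 on the MSG arrays and 48.6 to 60.3 on the combined arrays. In bulk liver, fewer cells of a type and less RNA per cell cannot be told apart, and the part of neutrophils in PLBD1, P2RY13 and IL19 was not tested.

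Of 29 measured genes of fatty acid oxidation and PPARA targets, 1 was called, 3.45% against 1.66% of all genes. The called member was CPT1A, the gate for long-chain fatty acids into mitochondria. It read 5.77 and 5.97 on MSG and 4.76 and 4.69 on combined arrays, with control at 4.55 and 4.78 and trans-fat/HFCS at 4.55 and 4.66, so the MSG arrays alone were high. CPT1A fell by 1.14 (SE 0.17, limma adjusted p = 0.015) with 10 of 11 probe sets lower, but its brightest probe set gave 0.40. Its call was lost without MSG array 1 (0.081), MSG array 2 (0.11), combined array 1 (0.058) or combined array 2 (0.065). VNN1, a pantetheinase that PPARA induces, read 3.27 and 3.13 on MSG and 5.54 and 4.23 on combined arrays, and its change of 1.68 did not pass the test (limma adjusted p = 0.056). PDK4, another PPARA target, was at 0.07 (adjusted p = 0.89), and the list median of -0.15 ranged from -0.20 to 0.06 over the settings.

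None of the 30 measured genes of fatty acid and triglyceride synthesis was called by limma, and their median change was -0.14. ACSL4, which activates long polyunsaturated fatty acids, came nearest at -0.75 (limma adjusted p = 0.053), from 7.88 and 7.75 on MSG to 7.05 and 7.08 on combined arrays. MID1IP1, a partner of acetyl-CoA carboxylase, was at -0.89 (adjusted p = 0.061), the citrate lyase ACLY at -0.69 (0.12), the desaturase SCD at -0.76 (0.15) and FASN, the fatty acid synthase, at -0.20 (0.62). The desaturase FADS1 at 1.08 (0.085) and the elongase ELOVL5 at 0.63 (0.087) had positive changes. Between 0 and 4 members of this list were called over the settings, the 4 with the brightest probe sets or with a mean-variance trend.

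Haptoglobin (HP), which binds free haemoglobin, was the called member of 22 acute phase genes, 4.55% against 1.66% of all genes. It read 7.28 and 7.28 on MSG and 5.46 and 4.61 on combined arrays, with 6.67 and 6.86 on control and 6.14 and 5.44 on trans-fat/HFCS arrays. HP fell by 2.25 (SE 0.30, limma adjusted p = 0.0104), on 2 probe sets at -3.39 and -1.10, and lost its call without MSG array 1 (0.099) or MSG array 2 (0.084). Probe sets annotated to the near-identical human gene HPR fell by 1.02 (SE 0.16, limma adjusted p = 0.0203). They may read HP in cat RNA, so their fall does not count as that of a second gene. The median of the acute phase list was 0.01. GSTA3, an alpha class glutathione transferase with close paralogs, fell by 2.29 (SE 0.26, limma adjusted p = 0.00467), but its probe sets gave -6.56, -0.37 and 0.06, so a single probe set made the change. It was the only call among 25 antioxidant genes, 4% against 1.66% of all genes, and the median of that list was -0.10. GAD1, which makes GABA from glutamate, was the only call among 26 genes of glutamate and glutamine handling, 3.85% against 1.66% of all genes. It rose by 1.22 (SE 0.21, limma adjusted p = 0.0249), carried by 1 of 3 probe sets at 3.33 beside 0.37 and -0.03. Its call was lost without MSG array 1 (0.18), MSG array 2 (0.096), combined array 1 (0.093) or either control array (0.053). Glutamine synthetase GLUL was at 0.07 (0.88).

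Of 44 genes of the extracellular matrix and stellate cells, 1 was called, 2.27% against 1.66% of all genes. CTGF, called at -1.04, was counted with the immediate early genes and is not on this list. Changes of 30 of the 44 were negative, 68.2% against 48.4% of all genes, with a median of -0.22. For hepatocyte markers the share was 71.4%. SPARC, a collagen-binding matricellular protein, was the called member: it read 5.87 and 5.92 on MSG and 5.05 and 5.16 on combined arrays, and fell by 0.79 (SE 0.16, limma adjusted p = 0.0449). The call of SPARC was lost without any 1 of the 8 arrays, with adjusted p up to 0.19 without MSG array 1. The collagens COL1A1 at -0.29 (adjusted p = 0.46), COL1A2 at -0.37 (0.26) and COL3A1 at -0.57 (0.11), the smooth muscle actin ACTA2 at -0.71 (0.092) and the protease MMP2 at -0.57 (0.22) did not pass. Of 13 stellate cell markers, all measured, none was called, and their summed intensity was 289 to 301 on MSG and 243 to 260 on combined arrays. Their part in the matrix genes was not tested, and COL1A1, COL1A2 and COL3A1 are on both lists.

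Unfolded protein response genes had negative changes in 21 of 25 cases, 84.0% against 48.4% of all genes, with a median of -0.26, but limma called none. The chaperone partner DNAJB11 was at -0.64 (adjusted p = 0.13) and the ubiquitin ligase SYVN1 at 0.79 (adjusted p = 0.097). Lists of gluconeogenesis and glycogen, sugar breakdown, lipid droplets, urea cycle, insulin and IGF signalling, interferon response, heat shock, drug metabolism, circadian clock and cell cycle gave no call either. Their medians ran from -0.22 to 0.13. Ketohexokinase KHK, the first enzyme of fructose breakdown, was at -0.63 (limma adjusted p = 0.11), glucose-6-phosphatase G6PC at -0.80 (0.079), PLIN2, which coats lipid droplets, at -0.59 (0.17), and CYP1A1, an enzyme of drug metabolism, at 0.66 (0.10).

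**Figure D3:**
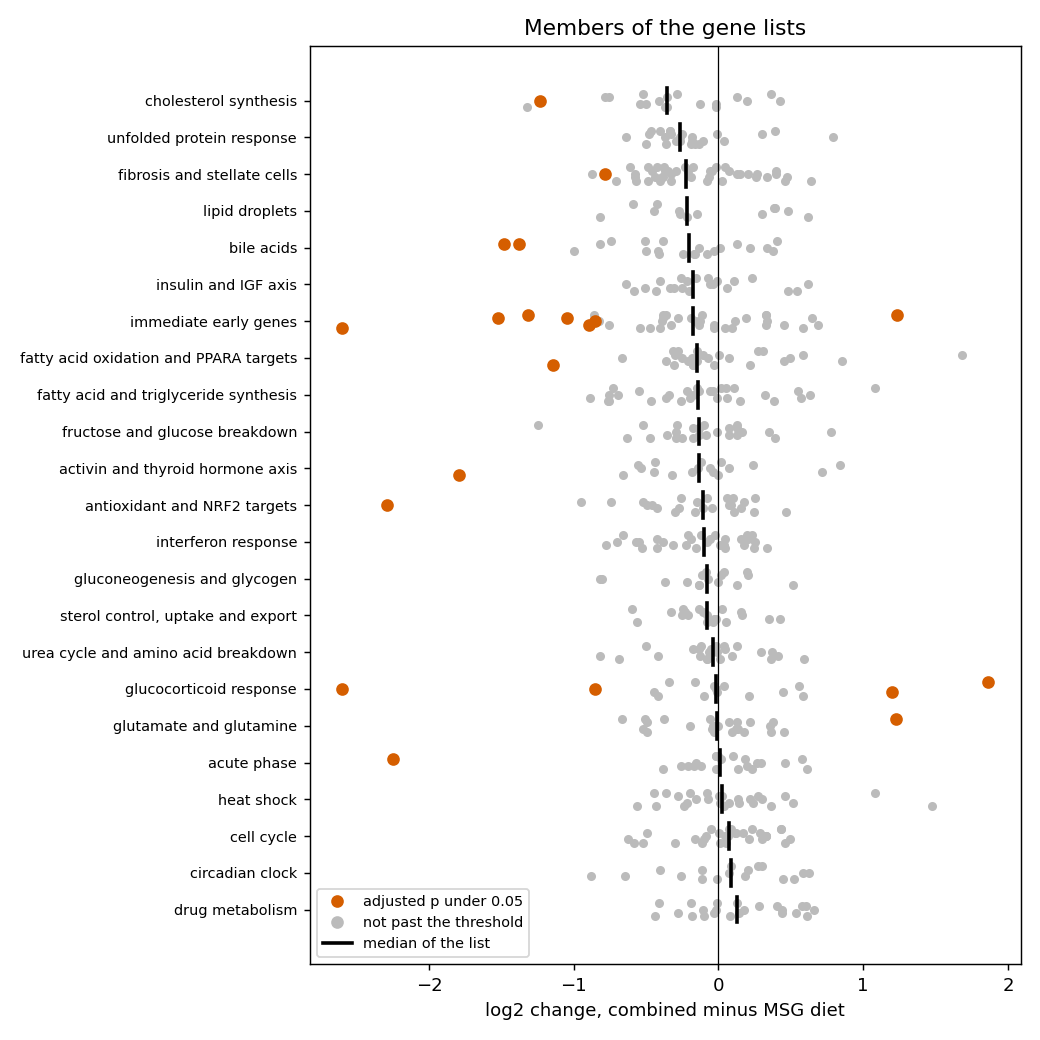
Log2 change of each measured member of the 23 pathway lists (points), combined minus MSG diet, with genes past an adjusted p of 0.05 in orange and the list median as a black bar. Immediate early genes hold 7 called members from -2.60 to 1.23, cholesterol synthesis has the lowest median at -0.36, and most points lie within 1 of 0.

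The same dietary change without MSG, on arrays that the main comparison does not use, called 444 genes (2.48%). Of the 297 genes called in MSG-fed cats, 261 (87.9%) had the same sign without MSG, against 62.7% of all genes. This held for 146 of the 169 increases (86.4%) and 115 of the 128 decreases (89.8%). Both comparisons called 105 genes, 35.4% of the 297 and 23.6% of the 444, and 104 of them went the same way, 62 higher and 42 lower. Both contrasts use 1 estimate of spread per gene, so a gene with little spread is easier to call in both. The median change without MSG was 0.67 for genes that rose in MSG-fed cats and -0.62 for those that fell. Skeletal muscle markers differed strongly between the arrays of this second comparison: their summed intensity was 927 to 962 on trans-fat/HFCS arrays against 274 to 277 on control arrays, 284 to 288 on MSG arrays and 272 to 310 on combined arrays. The 19 markers were all measured, and their median change was 0.05 with MSG and 1.41 without.

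**Figure D4:**
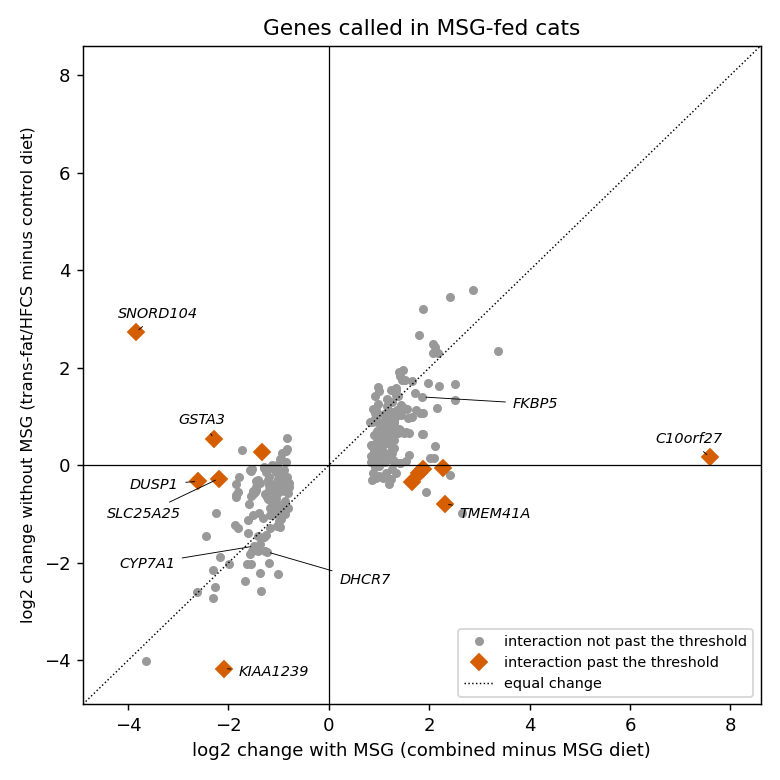
Log2 change of the 297 genes called in MSG-fed cats (x axis) against the change of the same genes without MSG (y axis), with genes past the test of the difference as orange diamonds and equal change as a dotted line. DUSP1, SLC25A25 and GSTA3 lie at the left near 0 on the y axis, CYP7A1 and DHCR7 lie near the dotted line, and the single-probe-set genes C10orf27 and SNORD104 lie far from it.

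The difference between both effects was tested directly, and 27 genes passed (0.151%). Of the 297 called genes, 12 were among them: DUSP1, SLC25A25, GSTA3, TMEM41A, SLC15A3, BEGAIN, SPAG5, FBXL14, HPS6, C10orf27, KIAA1239 and SNORD104. The change with MSG minus that without was -2.27 for DUSP1 (SE 0.24, limma adjusted p = 0.013) and -1.92 for SLC25A25 (SE 0.26, adjusted p = 0.036). DIO2 missed the threshold at -1.54 (adjusted p = 0.082), as did NR4A2 at -1.44 (0.16) and CPT1A at -1.08 (0.21). For genes of the second set the difference was 0.17 for CYP7A1 (SE 0.26), 0.23 for KLB (SE 0.31), 0.08 for ZBTB16 (SE 0.24), 0.46 for FKBP5 (SE 0.29) and 0.54 for DHCR7 (SE 0.25). None of these passed the test, which does not show that the effects were equal. The difference for DUSP1 lost its call without either control array (0.1 and 0.085) or either MSG array (0.083 and 0.087), and that for SLC25A25 without any 1 array, with adjusted p up to 0.19 without either control array.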

How the data were processed

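Liver RNA of 8 arrays, 2 for each of 4 diets, was analysed. The deposited values are normalized intensities per probe set on a linear scale, and the submitters' processing notes list hg19, Partek and GCRMA, with no version, role or order. Here they were log2 transformed. Of 257101 probe sets, the 128550 with a mean above the median of all (log2 2.43) were kept, and the 111624 of these with 1 gene symbol in the platform annotation were averaged per gene, which gave 17910 genes with a median of 5 probe sets. Symbols are those of that annotation and can be old. A table of cat genes held 75.7% of the symbols tested but only 61.3% of those called. Of the 297 called genes, 115 had no symbol in that table.

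All comparisons were contrasts in a model of 4 diet means and used all 8 arrays. The moderated two-sided tests came from lmFit and eBayes of limma 3.58.1 (R 4.3.3), with 4 residual and 5.01 prior degrees of freedom. The small number of arrays limits the precision. The 30 genes named first were the 15 largest called changes in each direction with at least 3 kept probe sets and a median change of the sign of, and at least 0.5 times, the mean, and 4 loci without a characterised name were passed over. For each list, called members and, where none was called, the 2 of smallest p were named, and genes described beside these were chosen after their values were seen. The comparison and the 23 pathway and 13 marker lists were chosen with earlier results of these data known. Lists are described by counts and medians, with no test. No sequences are shown. The fit was tested on simulated data. Replicate numbers gave no sign of pairing: deviations of same-numbered MSG and combined arrays correlated at -0.06. Other filters, ways of averaging probe sets, scalings and models were tried, and each array was left out in turn.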

Additional observations from a re-analysis of the deposited data

Results flagged for a closer look

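For 14 genes the change with trans fat and HFCS differed between cats fed MSG and cats not fed MSG by limma's test of the difference itself. They include the 12 also called in MSG-fed cats, and 27 genes passed that test in all. The change with MSG minus that without was -2.27 for DUSP1 and -1.92 for SLC25A25, both high on the MSG arrays only. Follistatin (FST), which binds and blocks activin, gave -2.34: trans fat and HFCS went with a rise of 1.81 without MSG (limma adjusted p = 0.0015) and a change of -0.53 with MSG (adjusted p = 0.16). OSGIN2 gave 2.29, with a fall of 2.33 without MSG and a change of -0.04 with it, since all 6 arrays with MSG or with trans fat and HFCS lay between 4.14 and 4.52, against 6.57 and 6.65 on control arrays.

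TMEM41A gave 3.10, SLC15A3 1.94, BEGAIN 1.99, GSTA3 -2.83 and SPAG5 -1.61, each on 3 probe sets. In each of these a single probe set made most of the change in MSG-fed cats, at 5.98, 5.07, 3.97, -6.56 and -3.69 in that order. FBXL14 gave 2.34, HPS6 1.96, KIAA1239 2.08, C10orf27 7.41 and SNORD104 -6.57, each on a single probe set. C10orf27 read 1.95 and 1.96 on the MSG arrays, below the filter on dim probe sets, and 9.43 to 10.28 on the 6 others. SNORD104, a small nucleolar RNA, read 6.81 and 7.20 on MSG and 6.41 and 6.63 on trans-fat/HFCS arrays, against 3.06 to 3.89 on control and combined arrays. The cause was not tested in any of these.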

How the results depend on the processing

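Of 17 other settings, 16 were planned and 1, the spread estimated without the trans-fat/HFCS arrays, was chosen after seeing the data. For the main comparison the settings are not all distinct. Leaving out either trans-fat/HFCS array gave the same fit as the added setting, and leaving out either control array gave the same fit as leaving out the other. Against 297 genes called in MSG-fed cats, 743 were called with a 75th percentile filter, 986 with the brightest probe set per gene, 100 with the median of the probe sets, 137 from the 4 arrays alone, 487 with a mean-variance trend, 288 with no filter (163 of them among the 297), 314 after quantile normalization and 233 with the added setting. Leaving out 1 array gave 54 to 233. For trans fat and HFCS without MSG, 444 became 834, 1120 and 180 with those 3 probe-set choices and 678 with the trend, and 62 to 528 with 1 array left out. For the difference between the effects, 27 became 14, 56 and 5 with them, 41 with the trend, and 5 to 20 with 1 array left out. With the replicate number as a block, 212 genes were called in MSG-fed cats, 195 of them among the 297, and 11 in the difference. The numbers only name the arrays. Direction was kept in every setting by 47 of the 51 genes followed. The exceptions were NR4A2 (0.65 with the 75th percentile filter and with the brightest probe set), GAD1 (-0.033) and CPT1A (0.40) with the brightest probe set, and SPAG5 (0.22) with the median. The cause was not tested. Of the 30 genes named first, 3 kept the call in every setting. Dim genes and genes on 1 probe set are the least secure.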

Other observations

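The called genes described here were chosen after their values were seen. ST3GAL5, which makes the ganglioside GM3, read 6.25 and 6.37 on MSG and 5.20 and 5.32 on combined arrays and fell by 1.05 (SE 0.17, limma adjusted p = 0.0223), with -0.97 without MSG (adjusted p = 0.024). The choline transporter SLC44A1 fell by 0.95 (SE 0.18, adjusted p = 0.0392), from 6.31 and 6.40 to 5.31 and 5.51, and by 1.11 without MSG (adjusted p = 0.016). B4GALT6, which makes lactosylceramide, fell by 1.18 (SE 0.19, adjusted p = 0.0219) and the ethanolamine kinase ETNK2 by 1.04 (SE 0.19, adjusted p = 0.0319), against -0.40 and 0.01 without MSG. Each of these 4 calls was lost without either MSG array and without combined array 1. Those of ST3GAL5 and SLC44A1 were also lost without combined array 2, those of SLC44A1 and ETNK2 without either control array, and that of ETNK2 without either trans-fat/HFCS array. Their highest adjusted p was 0.18 for SLC44A1 and ETNK2 and 0.16 for B4GALT6 without MSG array 1, and 0.13 for ST3GAL5 without MSG array 2.

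SERPINA6, the corticosteroid-binding globulin that the liver secretes, read 4.34 and 4.38 on MSG and 3.24 and 3.12 on combined arrays, with 4.24 and 4.04 on control and 3.94 and 3.35 on trans-fat/HFCS arrays. It fell by 1.18 (SE 0.21, limma adjusted p = 0.0331), and the call was lost without MSG array 1 (0.18), MSG array 2 (0.15), either combined array (0.089 and 0.11) or either control array (0.06). The chloride channel ANO1 fell by 1.23 (SE 0.16, adjusted p = 0.008), from 5.99 and 6.12 to 4.87 and 4.79, with 15 of 18 probe sets lower, and lost its call without MSG array 1 (0.062) or MSG array 2 (0.071). The chemokine CCL5 fell by 1.05 (SE 0.20, limma adjusted p = 0.0381). Kupffer cell and macrophage markers, of which 15 of 16 were measured and none called, summed to 379 to 397 on MSG and 446 to 458 on combined arrays. T and NK cell markers, all 12 measured and none called, summed to 158 and 180 on MSG and 178 and 165 on combined arrays. The part of these cells in CCL5 was not tested. The call of CCL5 was lost without MSG array 1 (0.12), MSG array 2 (0.18), either combined array (0.1 and 0.12) or either control array (0.075).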
